A study of Drosophila melanogaster with 12 samples.

Results

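The elav WDd allele was compared with the balancer control in whole Drosophila melanogaster embryos aged 20 to 24 h, using every gene in the count table. The comparison took 6 of the 12 poly(A) RNA sequencing libraries, 3 labelled WT and 3 labelled elav[WDd], and 12586 of 17561 counted genes had enough reads to be tested. The WT libraries came from embryos that carry the elav e5 allele, headed elav[null] in the count table, over the X balancer FM7. They therefore hold a mutant copy of elav beside the balancer's copy. The WDd embryos were picked as homozygous mutants by their lack of the GFP that marks the FM7 KrGFP balancer. The labels do not say what the WDd allele changes in elav, and the series title places it in a study of ELAV multimerization. The other libraries, 3 of elav null and 3 of an elav fne double null, are used below only as reference levels. Neither the sex of the embryos nor the number of embryos in a library is given, and the labels leave unsaid whether replicate libraries were collected separately. Each p-value thus reflects the variation among these particular libraries, which may be technical.

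ELAV is an RNA-binding protein of neuronal nuclei that directs alternative splicing and the use of distal poly(A) sites. It binds U-rich RNA as multimers. FNE and RBP9 are its close relatives in the fly, and FNE can take over part of its nuclear work when ELAV is lost. Counts per gene, the only measure here, see the level of a gene's RNA and not which exons or poly(A) sites it uses.

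Library totals ran from 67841358 to 97043662 counts in WT and from 72103076 to 74867886 in WDd. A count of 3 in one of these libraries corresponds to 0.0309 to 0.0442 CPM (counts scaled to a library size of 1e+06), the limit below which a gene with no count cannot be described, for counting error only. All levels below are CPM scaled with TMM normalisation factors over the 12 libraries, and all are whole-embryo levels, in which fewer cells of a type and less RNA per cell cannot be told apart. The WDd libraries resembled each other (r = 0.984 to 0.993 across genes, on log2(CPM + 1)) more closely than the WT libraries did (0.965 to 0.984). The correlations between WT and WDd libraries, 0.975 to 0.986, overlapped both ranges. WT replicates 1 and 3 stood at opposite ends of the first principal component, which held 41% of the variance, with loadings of −0.50 and 0.76. The 3 WDd libraries lay between them at −0.27 to 0.00. The number of calls and some of the counts over gene lists are therefore given without single libraries as well.

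elav itself was not lower in WDd. Its RNA measured 68.6, 109.5 and 160.5 CPM in the 3 WT libraries and 145.5, 191.2 and 154.7 CPM in the 3 WDd libraries. The groups overlap, because WT replicate 3 is above WDd replicates 1 and 3. The log2 fold change, WDd minus WT, was 0.53 ± 0.29 (SE, n = 3 and 3), with a 95% interval of −0.14 to 1.19 and an adjusted p of 0.723 by edgeR's quasi-likelihood test with Benjamini-Hochberg adjustment. In elav null the same gene was at 3.98 to 6.27 CPM, and WDd exceeded elav null by 5.04 on the log2 scale (adjusted p = 8.74e-07, edgeR). elav lies on the minus strand of X:509235-523226 (dm6) and shares its span with arg and lncRNA:enrr, so reads from these genes may have been counted together.

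fne, the paralog on X:12917477-12950417, had 134.9, 202.0 and 249.7 CPM in WT and 213.5, 276.1 and 271.8 CPM in WDd. Its log2 fold change was 0.36 ± 0.24 (adjusted p = 0.783, edgeR), with 1 WT library above the lowest WDd library. Rbp9, on 2L, was the flattest of the 3, at 73.1 to 94.5 CPM in WT and 73.5 to 92.7 CPM in WDd. The log2 fold change of Rbp9 was −0.04 ± 0.16, and its 95% interval of −0.40 to 0.32 leaves room for a difference of less than 2-fold in either direction.

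**Figure D1:**
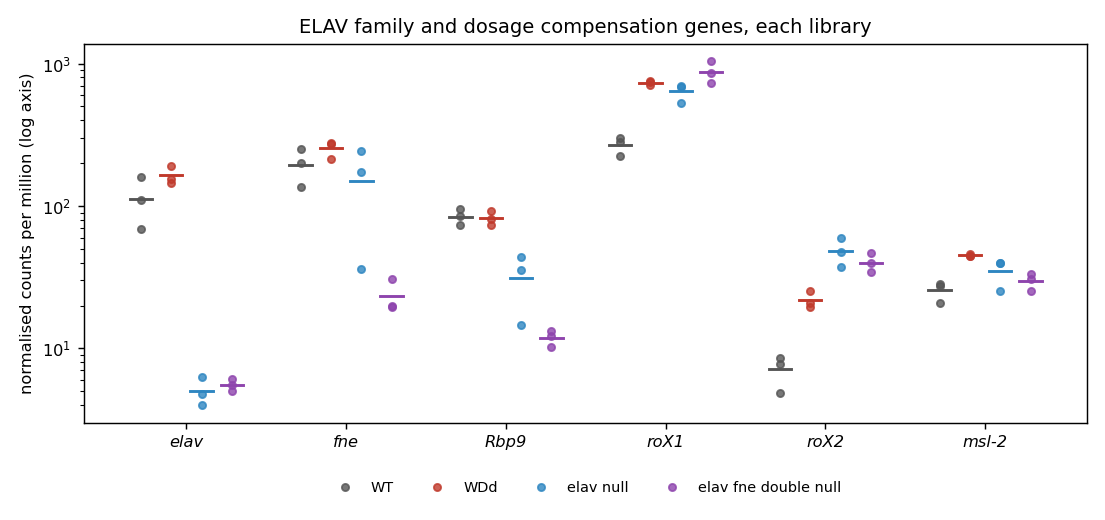
Normalised CPM on a log axis for elav, fne, Rbp9, roX1, roX2 and msl-2 in each of the 12 libraries; points are libraries and short bars are group means of 3. WT and WDd overlap for elav, fne and Rbp9, while all WDd points lie above all WT points for roX1, roX2 and msl-2.

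Of the 12586 genes tested, 26 were called at an adjusted p under 0.05 by edgeR, which is 0.207% of them. WDd was higher at 8 of the called genes (0.0636%) and lower at 18 (0.143%). All 26 differed by at least 2-fold and had WT and WDd ranges that do not overlap, and 24 had a mean of at least 5 CPM. The spans of 12 overlap another counted gene, for which reads may have been counted together. An unadjusted p under 0.05 was reached by 1041 genes (8.27%), and for 7876 genes (62.6%) the 95% interval of the fold change lay within a 2-fold change in either direction. The calls depended on single libraries. Without WT replicate 1 there were 76, among them all 26. Without WT replicate 3 there were 13. With WDd replicate 2 or WDd replicate 3 left out 3 and 4 genes were called. There were 0 calls without WT replicate 2, where 642 genes had an unadjusted p under 0.05, and 0 without WDd replicate 1, where 663 did. DESeq2 called 295 of 13868 genes (2.13%), 111 higher and 184 lower, and these include all 26.

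**Figure D2:**
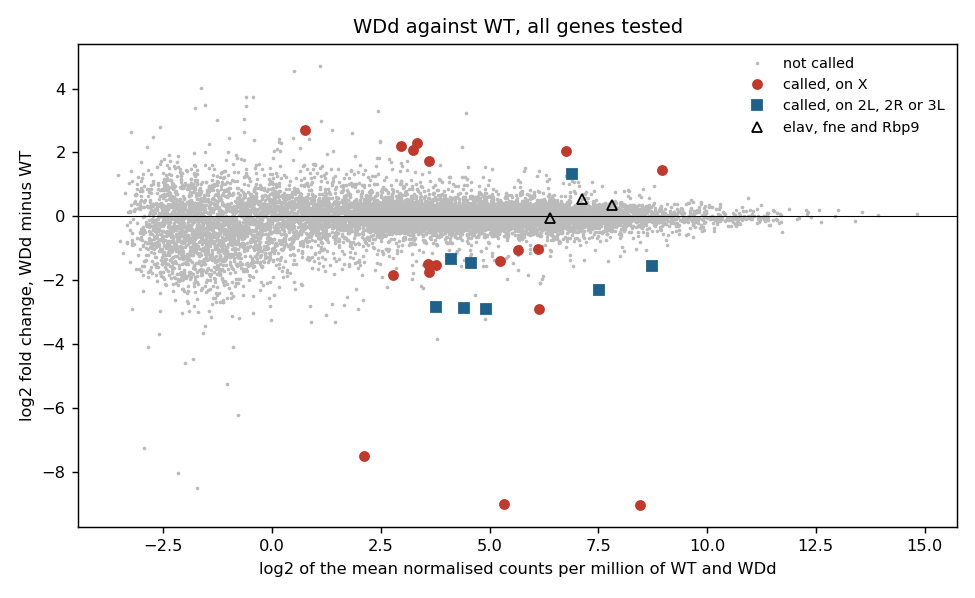
Log2 fold change, WDd minus WT, against the log2 mean normalised CPM for the 12586 genes tested; grey dots were not called, red circles were called on X, blue squares were called on 2L, 2R or 3L, and open triangles are elav, fne and Rbp9. The 26 called genes are spread over the range of levels, 18 of them on X, and CG3588 and CG14419 lie lowest.

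X-linked genes made up 18 of the 26 calls and 16.3% of the genes tested. On X, 7 genes rose and 11 fell of 2046 tested, a share of 0.88%. On the autosomes 1 rose and 7 fell of 10504, a share of 0.0762%. None of the 3109 genes on 3R was called by edgeR, where 229 had an unadjusted p under 0.05 and DESeq2 called 55. By DESeq2 3.86% of X genes and 1.91% of autosomal genes were called. The median log2 fold change was −0.07 on X and −0.02 on the autosomes. WT embryos carry FM7 and WDd embryos do not. Effects of the allele, of other differences on its X chromosome, of the balancer and of the embryos' sex cannot be told apart here.

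The 2 most strongly lowered genes among the calls lie near each other on X. CG3588 (X:2919770-2924426) had 732.5, 530.3 and 842.3 CPM in WT and 1.96, 2.06 and 0 CPM in WDd. CG14419 (X:2885186-2885914) had 99.4, 68.8 and 74.5 CPM in WT and 0.101, 0.356 and 0 CPM in WDd. Both were nearly absent from every WDd library. CG3588 fell by 9.04 ± 1.16 on the log2 scale (adjusted p = 0.0315) and CG14419 fell by 9.02 ± 0.75 (adjusted p = 0.0129, both edgeR). Both were present in elav null, at 782.5 to 1425 and 41.2 to 75.6 CPM, and in the double null, at 1123 to 1576 and 83.2 to 92.9 CPM. The difference was tested directly. The log2 difference, WDd minus elav null, was −9.68 for CG3588 and −8.60 for CG14419 (adjusted p = 3.21e-05 and 2.87e-06, edgeR), and was below the double null as well. These 2 genes, like the other numbered genes here, were named after their values were seen, since the rule for naming takes only genes with a name.

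Both genes start inside the span of kirre, which encodes an immunoglobulin-type adhesion protein needed for myoblast fusion and occupies X:2740384-3134532. A stretch of 71.2 kb in it, X:2875428-2946589, from CG14417 to CG14423, holds 9 genes that were tested, and each had a negative log2 fold change in WDd. The ends of the stretch were set after the values were seen, so the shared direction within it is a description and not a test. The next tested gene before CG14417 is w, which also had a negative log2 fold change and is given below. CG14417 and CG14418 had 0 counts in all 3 WDd libraries against 97 and 134 summed counts in WT, which makes them at least 32.9-fold and 44.9-fold lower, taking 3 counts over the group as the limit. CG32793 had 1.06 to 2.16 CPM in WT and 0.303 to 0.62 CPM in WDd. CG3598, CG14421, CG14422 and CG14423 were under 1.4 CPM in every WT library and under 0.18 CPM in every WDd library. Apart from CG3588 and CG14419 none of the 9 was called, with adjusted p from 0.101 to 0.708 (edgeR), and their low counts leave wide intervals.

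Several genes outside that stretch were measured at similar levels in both groups. CG32795, just downstream of w, had 148.2 to 185.8 CPM in WT and 149.2 to 193.6 CPM in WDd. Just beyond the other end, CG3603 had 6.87 to 11 and 6.32 to 10.5 CPM, and rst, a paralog of kirre that acts in eye patterning, had 22.8 to 30.7 and 30.6 to 35.6 CPM. For these 3 genes the log2 fold changes were 0.06 ± 0.17, −0.05 ± 0.28 and 0.21 ± 0.17. kirre itself was at 20.5 to 31.8 CPM in WT and 17.3 to 20.8 CPM in WDd (log2 fold change −0.43 ± 0.20, adjusted p = 0.635, edgeR). The white gene w, an eye pigment transporter that lies in the same span but outside the stretch, measured 7.41, 8.79 and 4.74 CPM in WT and 1.67, 0.883 and 0.254 CPM in WDd. Its groups do not overlap, and it was not called (log2 fold change −2.90 ± 0.62, adjusted p = 0.16, edgeR). In the double null w was at 89.3 to 101.9 CPM, and in elav null it was at 6.43, 14.7 and 109.4 CPM. FM7 chromosomes commonly carry visible alleles of w and of the body colour gene y, which was at 59.3 to 83.5 CPM in WT and 27.0 to 36.2 CPM in WDd (adjusted p = 0.0864, edgeR). Whether the DNA of this stretch differs between the stocks cannot be read from RNA counts and was not tested.

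**Figure D3:**
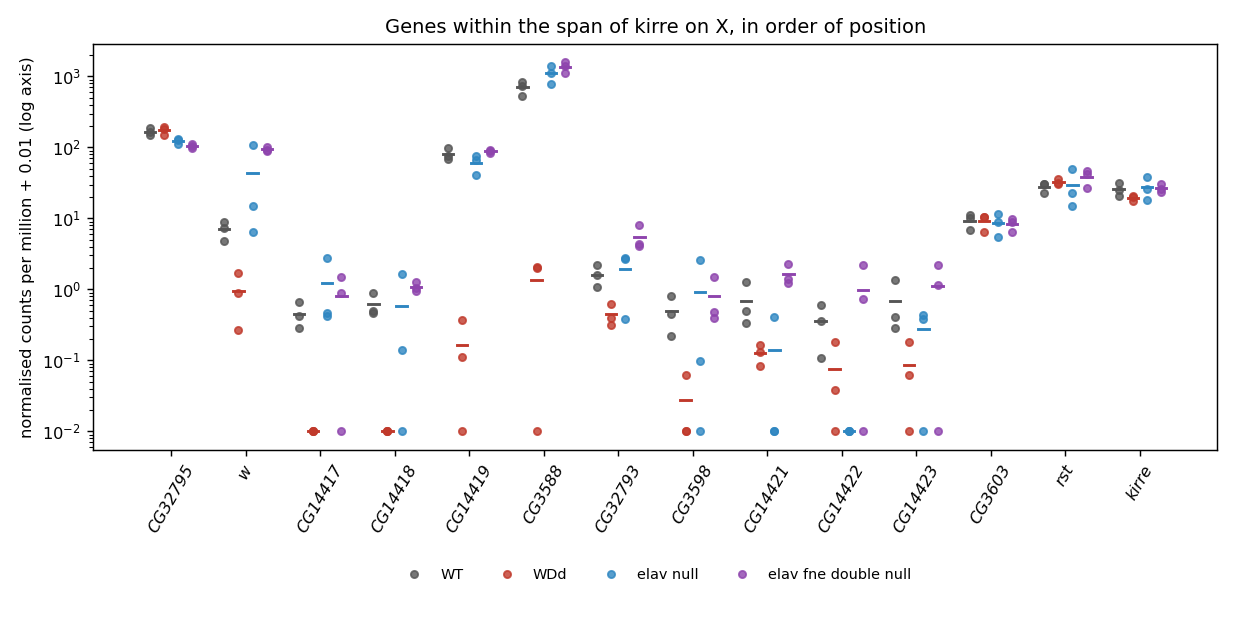
Normalised CPM plus 0.01 on a log axis for 14 genes that start within the span of kirre, ordered by position with kirre last; points are libraries and short bars are group means of 3. From CG14417 to CG14423 the WDd means lie below the WT means, with CG3588 and CG14419 furthest apart, while CG32795, CG3603 and rst are level.

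The neighbours of elav were examined next, since they sit close to the altered locus. CG17778, 12.9 kb from elav at X:494614-496369, rose from 2.38, 3.36 and 2.50 CPM in WT to 14.9, 10.9 and 12.5 CPM in WDd. The log2 fold change was 2.21 ± 0.24 (adjusted p = 0.0256, edgeR), and the gene was also above WT in elav null, at 8.41 to 12 CPM, and in the double null, at 7.73 to 8.87 CPM. svr, which encodes a carboxypeptidase and lies between CG17778 and elav at X:496446-509072, was at 142.1 to 206.6 CPM in WT and 144.5 to 162.1 CPM in WDd (log2 fold change −0.16 ± 0.17, adjusted p = 0.877, edgeR). svr was added after its values were seen. Appl, the fly homolog of the amyloid precursor protein and a pan-neuronal gene, starts on the other side of elav at X:530501-579044. It had 297.0, 412.5 and 629.0 CPM in WT and 208.5, 313.4 and 248.0 CPM in WDd. The log2 fold change of −0.81 ± 0.28 was not called (adjusted p = 0.465, edgeR), and the second WDd library was above the lowest WT library. Set against the mutants without ELAV, Appl in WDd differed by −0.97 on the log2 scale from elav null and by −0.86 from the double null, both called (adjusted p = 0.0184 and 0.0274, edgeR). Without elav null replicate 3 the first of these was −0.98 (adjusted p = 0.0272, edgeR). arg, an arginase gene, and CG4293, whose spans meet next to elav, had log2 fold changes of 0.21 ± 0.29 and −0.51 ± 0.23 against WT and were not called. The antisense RNA gene asRNA:CR44892 was at 1.34 to 2.01 CPM in WT and 1.11 to 1.88 CPM in WDd, and 2 more non-coding genes of the locus, lncRNA:enrr and asRNA:CR44891, had 0 counts in all 6 libraries.

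Higher in WDd were 5 genes with names. The strongest by size was Reepl1, a member of the REEP family of membrane-shaping proteins, at X:11572707-11573640. It had 2.86, 2.99 and 4.25 CPM in WT and 17.1, 16.3 and 17.0 CPM in WDd, a log2 fold change of 2.31 ± 0.22 (adjusted p = 0.0132, edgeR). Kmn1, a kinetochore subunit, adjoins it at X:11571383-11572442 and had 2.72 to 4.59 CPM in WT and 14.6 to 16.2 CPM in WDd (log2 fold change 2.08 ± 0.24, adjusted p = 0.0291, edgeR). Another gene of this spot, CG11699, whose span overlaps that of Kmn1, went from 0.241 to 0.686 CPM up to 1.6 to 3.14 CPM and was not called (adjusted p = 0.149, edgeR). fiz, also called fezzik, encodes an oxidoreductase of the GMC family and lies at X:14906334-14909708. It rose from 40.0, 39.6 and 44.8 CPM to 186.1, 160.7 and 176.4 CPM, a log2 fold change of 2.06 ± 0.15, and had the smallest adjusted p of all genes (0.00751, edgeR).

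Levels of these 3 X-linked genes also differed among libraries of 1 group. fiz was at 49.2, 86.7 and 394.0 CPM in elav null replicates 1 to 3, all above the WT range. In the double null it was at 282.7 to 354.7 CPM. Reepl1 was at 1.08, 3.46 and 26 CPM and Kmn1 at 2.06, 3.87 and 17.2 CPM in the 3 elav null libraries. In the double null Reepl1 was at 17 to 20.8 CPM and Kmn1 at 11.8 to 20.6 CPM. WDd was not called apart from the double null for Reepl1 or Kmn1 (adjusted p = 0.911 and 0.865, edgeR). With all elav null libraries WDd was not called apart from them for fiz (log2 difference −0.02, adjusted p = 0.992, edgeR). The same held for Reepl1 (0.74, adjusted p = 0.558) and Kmn1 (1.01, adjusted p = 0.267, both edgeR). Without elav null replicate 3 WDd was higher by 1.35 ± 0.23 for fiz, 2.89 ± 0.42 for Reepl1 and 2.36 ± 0.36 for Kmn1 (adjusted p = 0.00106, 3.66e-04 and 5.71e-04, edgeR). That replicate also stood with the double null libraries at fne, where it had 36.2 CPM against 173.2 and 242.7 CPM in the other elav null libraries.

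Pepck2, a phosphoenolpyruvate carboxykinase of gluconeogenesis, was the autosomal gene that rose. It lies on 2R and had 69.6, 55.9 and 77.9 CPM in WT and 176.0, 179.9 and 156.3 CPM in WDd (log2 fold change 1.32 ± 0.17, adjusted p = 0.0315, edgeR). It stood at 211.4 to 353.2 CPM in elav null and 161.2 to 263.8 CPM in the double null. CG1764 and CG32640, both on X and named after their values were seen, also rose. CG1764 went from 4.32 to 7.07 CPM in WT to 16.8 to 20.4 CPM in WDd, and CG32640 from 0.382 to 0.528 CPM to 2.58 to 3.30 CPM.

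**Figure D4:**
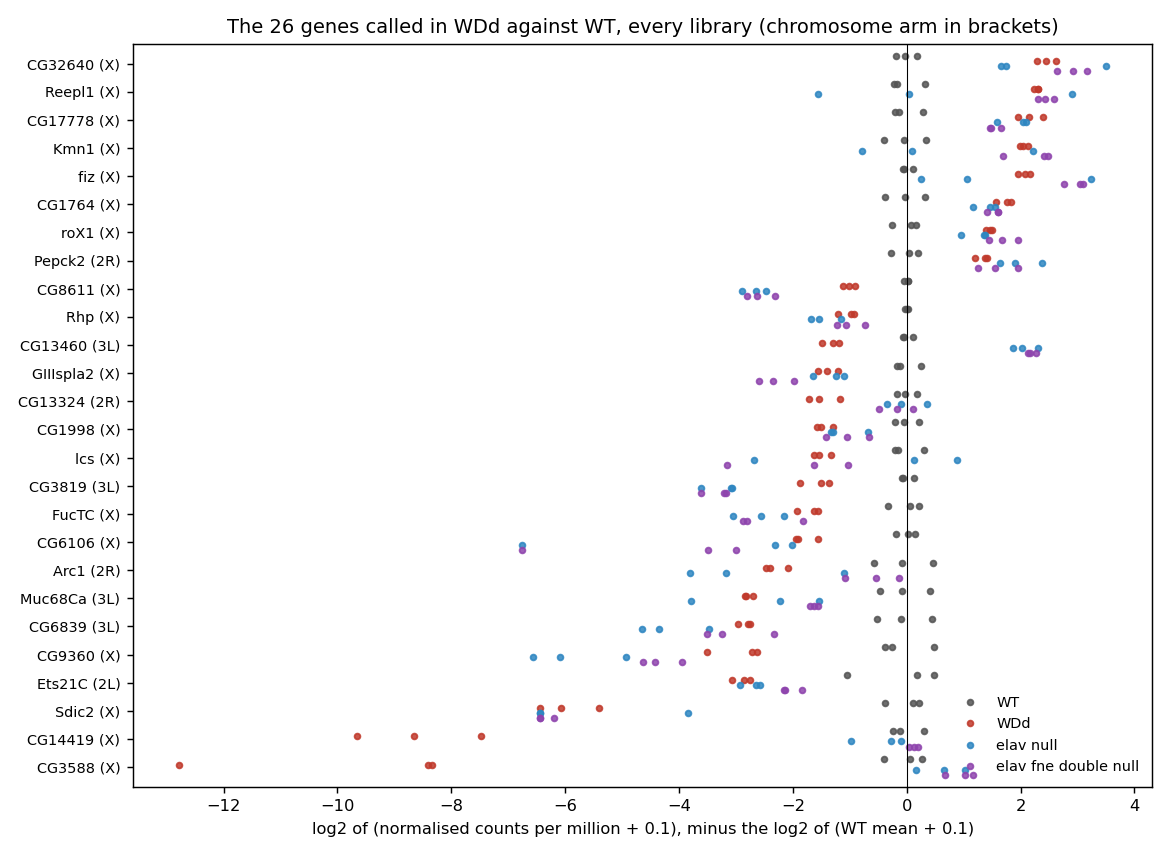
The 26 genes called in WDd against WT, ordered by fold change with the chromosome arm in brackets; each point is a library, placed by log2 of (normalised CPM + 0.1) minus the log2 of (WT mean + 0.1). For each gene all WDd points lie on one side of all WT points, and the elav null points of fiz, Reepl1 and Kmn1 fall apart.

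The remaining gene that rose is roX1, 1 of 2 non-coding RNAs that, with the MSL proteins, form the complex doubling transcription of the single male X. roX1 had 225.1, 300.2 and 282.0 CPM in WT and 709.6, 739.4 and 756.4 CPM in WDd, a log2 fold change of 1.44 ± 0.17 (adjusted p = 0.0304, edgeR). Every WDd library was more than 2-fold above every WT library. roX1 was also above WT in the other mutants, at 524.6 to 701.2 CPM in elav null and 732.7 to 1039 CPM in the double null. WDd was not called apart from either (adjusted p = 0.516 and 0.387, edgeR). roX2 had 8.61, 7.83 and 4.90 CPM in WT and 19.5, 20.8 and 25.4 CPM in WDd, a change of 1.61 ± 0.24 that missed the threshold in edgeR (adjusted p = 0.0655) and passed in DESeq2 (1.16e-07). It was higher still in elav null, at 37 to 59.5 CPM, and in the double null, at 34.2 to 46.4 CPM. WDd was called below both (adjusted p = 0.00556 and 0.02, edgeR). msl-2, the subunit translated only in males, had 21.0, 27.5 and 28.5 CPM against 44.5, 46.1 and 44.3 CPM (log2 fold change 0.80 ± 0.16, adjusted p = 0.142, edgeR). Its level was 25.1 to 39.8 CPM in elav null and 25.3 to 33.1 CPM in the double null. Sxl, the female switch gene, was at 212.2 to 349.3 CPM in WT and 198.5 to 219.9 CPM in WDd, with overlapping groups (adjusted p = 0.74, edgeR). Of the 14 tested genes on the list of sex and dosage compensation genes roX1 alone was called by edgeR, where 0.207% of all genes were. An unadjusted p under 0.05 was reached by 3 (21.4%, against 8.27% of all genes), and DESeq2 called roX1, roX2 and msl-2, the last at an adjusted p of 0.00881.

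Summed over the 60 Y-linked genes of the table, WT libraries had 4.64, 6.99 and 1.92 CPM and WDd libraries had 21.1, 25.7 and 10.5 CPM, so all WDd libraries were above all WT libraries. The other mutants were above WT too, with sums of 9.29 to 12.8 CPM in elav null and 14.3 to 26.4 CPM in the double null. FDY, a protein-coding gene that was copied to the Y, was at 3.69, 4.26 and 0.528 CPM in WT and 13.2, 9.97 and 6.87 CPM in WDd (log2 fold change 1.81 ± 0.65, adjusted p = 0.483, edgeR). The other 8 Y genes tested are Su(Ste) repeats under 5 CPM, near-identical copies among which reads cannot be assigned with certainty. Of the 9, none was called by edgeR, 7 had an unadjusted p under 0.05 (against 8.27% of all genes) and DESeq2 called 3 (against 2.13%). As labelled, the WT genotype pairs an elav e5 X chromosome with the X balancer FM7, which is more than the single X of a male. The labels state no sex for either group. A difference in sex cannot be told apart from the allele and the balancer, and its part was not tested.

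Beside these, 7 genes with names fell. Arc1, which encodes a capsid-forming protein descended from a retrotransposon Gag and is induced by neuronal activity, had 206.1, 290.2 and 422.8 CPM in WT and 72.1, 57.9 and 55.1 CPM in WDd. It fell by 2.32 ± 0.28 on the log2 scale, about 5-fold (adjusted p = 0.0315, edgeR), and the groups are far apart. Its neighbour Arc2 on 2R had 15.8 to 17.7 CPM in WT and 4.06 to 7.78 CPM in WDd and was not called (adjusted p = 0.101, edgeR). Ets21C, an ETS transcription factor induced by stress and injury, had 26, 60.6 and 74.5 CPM in WT and 7.85, 6.30 and 7.32 CPM in WDd. It fell by 2.92 ± 0.37 (adjusted p = 0.0315, edgeR), and its WT libraries spread almost 3-fold while the WDd libraries were close together. Both were below every WT library in elav null too, at 21.8 to 142.3 CPM for Arc1 and 6.96 to 8.89 CPM for Ets21C. In the double null Ets21C was at 12 to 15 CPM and Arc1 at 145.2 to 280.7 CPM. For Arc1 the log2 difference, WDd minus the double null, was −1.78 (adjusted p = 0.0314, edgeR).

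Muc68Ca, a mucin gene on 3L, had 17.4, 22.7 and 32.0 CPM in WT and 3.32, 3.27 and 3.62 CPM in WDd. It fell by 2.83 ± 0.25 on the log2 scale (adjusted p = 0.0132, edgeR). FucTC, an X-linked fucosyltransferase, went from 14.7 to 21.7 CPM down to 4.8 to 6.23 CPM. GIIIspla2, a secreted phospholipase A2, went from 48.3 to 64.5 CPM down to 18.3 to 23.4 CPM. Rhp, the fly rhophilin, had the tightest values, 66.4 to 68.9 CPM in WT and 29.1 to 35.5 CPM in WDd (log2 fold change −1.05 ± 0.14, adjusted p = 0.0369, edgeR). lcs, on X, had 17.6 to 25.0 CPM in WT and 6.49 to 8.01 CPM in WDd. Muc68Ca, FucTC, GIIIspla2 and Rhp were below their WT range in all 6 elav null and double null libraries as well.

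The 9 lowered genes not yet described have no name or belong to a repeated family, and were named after their values were seen. Sdic2, from the tandem array of sperm dynein intermediate chain genes on X, was at 6.54 to 9.95 CPM in WT and 0 to 0.105 CPM in WDd. It was at most 0.506 CPM in the other mutant libraries. Its copies are near-identical, so reads of 1 copy and of the array cannot be told apart. CG6839 and CG3819 are neighbours on 3L, at 26 to 50.9 against 4.71 to 5.41 CPM and at 605.7 to 700.5 against 175.5 to 249.4 CPM. CG9360, on X, fell from 95.1 to 171.3 CPM down to 10.8 to 19.8 CPM (log2 fold change −2.91 ± 0.32, adjusted p = 0.0256, edgeR) and was lower still in elav null, at 1.21 to 3.94 CPM. CG13460 on 3L differed between the mutants, with 23.4 to 26.6 CPM in WT, 8.73 to 10.7 CPM in WDd and 89.6 to 121.5 CPM in elav null. The log2 difference, WDd minus elav null, was −3.40 there (adjusted p = 3.38e-07, edgeR). CG8611, CG1998, CG6106 and CG13324 fell by 1.02 to 1.84 on the log2 scale.

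No gene of the neuronal lists passed the edgeR test. The 9 lists cover described ELAV and FNE targets, synaptic vesicle and active zone proteins, ion channels and transmitter synthesis. They also cover receptors, neuropeptides, axon guidance, sensory neurons and other neuronal RNA-binding proteins. Of their 176 tested genes edgeR called 0. It called 0.207% of all genes, so 0 calls do not set apart 176 genes. An unadjusted p under 0.05 was reached by 18 of them, 3 higher and 15 lower, and DESeq2 called 7, all lower, where 8.27% and 2.13% of all genes did so. The median log2 fold change was −0.01, against −0.03 over all genes tested. For 149 of the 176 the 95% interval lay within a 2-fold change, which is 84.7% against 62.6% of all genes tested. Low counts leave wide intervals, and the share over all genes was not matched for level. All WDd libraries were below all WT libraries for 20 of the 176 (11.4%, against 7.53% of all genes) and above them for 8 (4.55%, against 7.22%). Without WT replicate 3 they were below for 23 (13.1%, against 17.5%) and above for 53 (30.1%, against 15.9%). Among synaptic genes brp, the active zone scaffold, had 176.2 to 487.5 CPM in WT and 271.4 to 408.4 CPM in WDd. Syt1, the calcium sensor of release, had 264.9 to 472.7 and 339.2 to 401.3 CPM. Snap25, a SNARE protein, was the exception on its list of 23, with 34.7, 43.2 and 44.2 CPM in WT and 22.8, 22.8 and 22.3 CPM in WDd (log2 fold change −0.85 ± 0.16, adjusted p = 0.106 by edgeR and 0.00146 by DESeq2).

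The 10 described ELAV and FNE targets had log2 fold changes between −0.29 and 0.52, with a median of 0.01 and 0 calls by edgeR or DESeq2. Of all genes 0.207% and 2.13% were called, so 0 calls do not set apart a list of 10. The transcription factor gene ewg, a classic ELAV splicing target, was at 61.1, 65.8 and 76.2 CPM in WT and 97.7, 96.3 and 98.6 CPM in WDd (log2 fold change 0.52 ± 0.14, unadjusted p = 0.0062, adjusted p = 0.291, edgeR). It was the sole member with an unadjusted p under 0.05, and its groups do not overlap. Nrg, the neuroglian adhesion protein gene whose neuronal exon ELAV includes, was at 557.9 to 821.7 CPM in WT and 669.2 to 790.0 CPM in WDd. Dscam1, the axon guidance receptor, was at 134.2 to 358.8 and 187.1 to 302.0 CPM. For both the groups overlap and the adjusted p was 0.923 and 0.989 (edgeR).

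Neuropeptide genes sat lower together, though no single one was called by edgeR. Of 31 tested members of the list of neuropeptides and their processing enzymes, 13 had all WDd libraries below all WT libraries and 0 had them above. Over all genes tested those shares were 7.53% and 7.22%. The median log2 fold change of the list was −0.27, 26 of 31 were negative, 10 had an unadjusted p under 0.05 (against 8.27% of all genes) and DESeq2 called 4 (against 2.13%). Leaving out any of the 6 libraries left 13 to 16 members with WDd below WT, while the share over all genes rose to between 9.46% and 17.5%. Summed over the list, WT libraries had 854.1, 891.3 and 973.4 CPM and WDd libraries had 791.8, 733.3 and 808.0 CPM. The summed WDd level was below WT in every library.

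Among the peptides, Ms, which encodes myosuppressin, had 22.6, 20.3 and 19.3 CPM in WT and 11.4, 11.7 and 11.9 CPM in WDd (log2 fold change −0.84 ± 0.15, adjusted p = 0.106 by edgeR and 3.91e-04 by DESeq2). Ilp2, an insulin-like peptide of brain neurosecretory cells, had 11.5, 11.2 and 6.99 CPM in WT and 5.91, 4.30 and 4.14 CPM in WDd. FMRFa was at 6.03 to 7.05 CPM in WT and 2.58 to 3.97 CPM in WDd. Burs, a subunit of the cuticle-hardening hormone bursicon, was at 5.19 to 8.20 and 2.86 to 4.34 CPM. These 4 peptides are the ones DESeq2 called. The circadian peptide gene Pdf, the tachykinin gene Tk and the allatostatin gene AstA had log2 fold changes of −0.84, −0.59 and −0.54, with groups apart and adjusted p of 0.364, 0.329 and 0.344 (edgeR). Nplp1, the most abundant of the 13, was at 85.6 to 112.1 CPM in WT and 67.6 to 74.0 CPM in WDd.

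Activity-regulated genes were also lower without passing the test singly. Of the 7 tested, edgeR called 0, 5 had an unadjusted p under 0.05 (against 8.27% of all genes), DESeq2 called 3 (against 2.13%) and 4 had groups apart with WDd below WT (against 7.53%). The groups overlapped for sr, CrebA and Irbp18, with log2 fold changes of −0.73, −0.38 and 0.14. The nuclear receptor gene Hr38, the fly ortholog of the mammalian NR4A activity genes, had 17.0, 45.8 and 97.3 CPM in WT and 4.43, 6.61 and 6.39 CPM in WDd. Its log2 fold change was −3.21 ± 0.57 (adjusted p = 0.105, edgeR), and its WT libraries spread more than 5-fold. kay, the fly Fos, had 313.1, 628.8 and 627.4 CPM in WT and 251.7, 284.4 and 226.4 CPM in WDd. Jra, the fly Jun, was at 115.6 to 131.6 CPM and 61.4 to 77.4 CPM, and puc, the phosphatase induced by Jun kinase signalling, at 165.6 to 270.8 and 155.8 to 157.9 CPM. In these genes the WDd libraries lay close together and WT replicate 1 was the lowest WT library for Hr38, kay and puc. In elav null Hr38 was at 6.31 to 8.63 CPM and in the double null at 3.57 to 11.5 CPM.

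**Figure D5:**
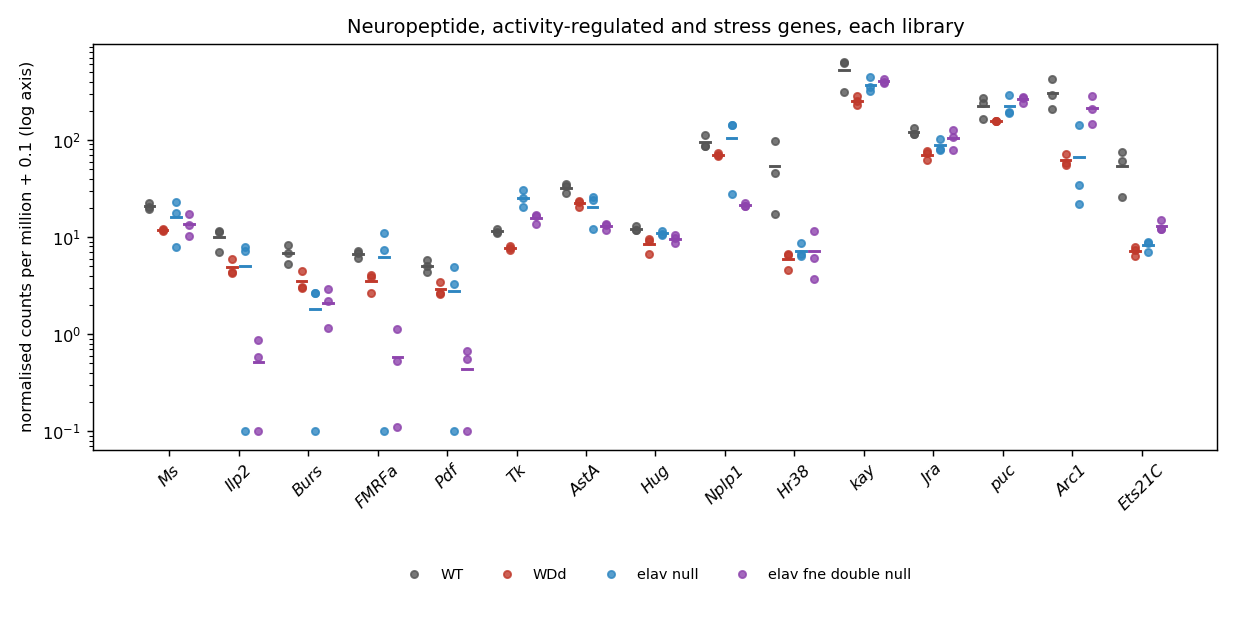
Normalised CPM plus 0.1 on a log axis for 9 neuropeptide genes, 4 activity-regulated genes, Arc1 and Ets21C; points are libraries and short bars are group means of 3. For each of these 15 genes the WDd points lie below the WT points. The neuropeptide and activity-regulated genes shown are among the members for which this holds, 13 of 31 and 4 of 7 tested.

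Muscle genes also lay near WT. For 26 of 27 muscle genes the interval lay within a 2-fold change (96.3%, against 62.6% of all genes, again not matched for level). An unadjusted p under 0.05 was reached by 1 (3.7%, against 8.27%). edgeR and DESeq2 called 0, where they called 0.207% and 2.13% of all genes, so 0 calls do not set apart 27 genes. Mhc, the muscle myosin heavy chain, was at 6795 to 9549 CPM in WT and 6878 to 9352 CPM in WDd. In elav null Mhc was at 433.2 to 2831 CPM and in the double null at 467.4 to 1264 CPM. Of 15 glial genes 4 had WDd above WT in all libraries (26.7%, against 7.22% of all genes) and 0 below (against 7.53%). edgeR and DESeq2 called 0 of the 15 glial genes (against 0.207% and 2.13% of all genes), and 1 had an unadjusted p under 0.05 (6.67%, against 8.27%). repo, the glial homeobox gene, was at 16.2 to 17.6 CPM in WT and 21.7 to 23 CPM in WDd (log2 fold change 0.41 ± 0.14, adjusted p = 0.467, edgeR). Among 17 neuroblast and progenitor genes nerfin-1, a zinc finger gene of nascent neurons, was at 2.21 to 4.81 CPM in WT and 7.46 to 13.1 CPM in WDd (log2 fold change 1.49 ± 0.34, adjusted p = 0.202 by edgeR and 0.00249 by DESeq2). The neuroblast gene insc moved the other way, from 14.8 to 25.4 CPM to 10.9 to 12.4 CPM (adjusted p = 0.305, edgeR).

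Digestive genes of the midgut leaned lower. The list was drawn by symbol pattern, and its 43 tested genes include MagR and Magi, which are not digestive genes. Both had overlapping groups, with unadjusted p of 0.268 and 0.498 (edgeR), so they are in the total of 43 alone. Of the 43, edgeR called 0, where it called 0.207% of all genes. An unadjusted p under 0.05 was reached by 13 (2 higher, 11 lower), a share of 30.2% against 8.27% of all genes. DESeq2 called 6, 1 higher and 5 lower, where it called 2.13% of all genes. The serine protease gene Jon25Bi was at 865.9 to 1131 CPM in WT and 565.8 to 686.9 CPM in WDd, and the mannosidase gene LManVI at 562.3 to 735.4 and 355.1 to 463.6 CPM. The maltase gene Mal-A8 was higher, 9.39 to 20.2 CPM in WT and 39.0 to 53.4 CPM in WDd (log2 fold change 1.55 ± 0.28, adjusted p = 0.106 by edgeR and 3.34e-05 by DESeq2). WDd was below WT in every library for 11 of these genes (25.6%, against 7.53% of all genes) and above for 2 (4.65%, against 7.22%). Leaving out 1 library left 11 to 21 genes below. The most were without WT replicate 3 (48.8%, against 17.5%). Without WT replicate 1 the share was 25.6% against 14.9%. Without WDd replicate 2 it was 25.6% against 13.1%, and 14% against 13.9% were above.

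Chromosome 4 stood out by a small and even shift. Of its 97 genes tested 81 had a positive log2 fold change, with a median of 0.22 against −0.03 over all genes. All WDd libraries were above all WT libraries for 35 of the 97, or 36.1%, against 7.22% over all genes, and for 0 were they all below, against 7.53%. Leaving out 1 library left 37 to 52 genes above (38.1% to 53.6%), while the share over all genes rose to between 9.21% and 17.2%. It left 0 to 3 genes below. edgeR called 0 of the 97, 17 had an unadjusted p under 0.05 (against 8.27% of all genes) and DESeq2 called 2 (2.06%, against 2.13%). Pur-alpha, a single-stranded nucleic acid binding protein gene, was at 109.1 to 125.2 CPM in WT and 165.9 to 193.8 CPM in WDd, and ci, the transcription factor of hedgehog signalling, at 60.1 to 69.5 and 80.3 to 95.3 CPM. The genes named from this chromosome were chosen after their values were seen. Summed over the 107 chromosome 4 genes, levels were 18300, 20985 and 20930 CPM in WT and 20823, 22672 and 22862 CPM in WDd, with the first WDd library inside the WT range. In elav null the sum was 12522 to 13923 CPM and in the double null 9171 to 12245 CPM.

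Against the mutants without ELAV the same WDd libraries differed at many more genes. WDd was higher than elav null at 1538 of 14031 genes (11%) and lower at 818 (5.83%), and higher than the double null at 2007 (14.3%) and lower at 926 (6.6%), by edgeR in a fit of all 12 libraries. The muscle list had 23 of 27 genes higher than in elav null and 24 of 27 higher than in the double null, none lower. Act57B, a muscle actin, was at 15302 to 16982 CPM in WDd, 527.7 to 5670 CPM in elav null and 493.7 to 1024 CPM in the double null. Heat shock genes lay the other way, with 13 of 14 lower than in elav null and 12 of 14 lower than in the double null. Hsp26 was at 7.19 to 58.2 CPM in WDd and 492.5 to 710.2 CPM in elav null. Without elav null replicate 3 the counts were 23 of 27 for muscle and 13 of 15 for heat shock. Of the 176 neuronal genes, 15 were higher and 2 lower than in elav null, and 12 higher and 11 lower without that replicate. Against the double null 57 were higher and 4 lower. These comparisons share the WDd libraries with the comparison against WT and are not independent of it.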

How the data were processed

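The authors deposited raw counts of reads per gene. The submitters' processing notes name dm6 as the build and, without their roles, DESeq2 1.40.2, featureCounts 2.0.8, STAR 2.7.11a and Trim Galore 0.6.7. The strand setting and the treatment of multi-mapped reads are not given in the sources used here. Per the labels' protocols, poly(A) RNA was sequenced as paired 150 bp reads. Symbols and positions came from the RefSeq table of the same assembly, in which all 17561 genes matched.

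WDd was compared with WT in a fit of those 6 libraries: TMM factors, filterByExpr and edgeR 4.0.16 (R 4.3.3) with its two-sided quasi-likelihood test, Benjamini-Hochberg adjusted over 12586 genes, called at 0.05. The common biological coefficient of variation was 0.349. WDd was compared with elav null and the double null in a fit of all 12 libraries. SE is the log2 fold change over the root of F. The scripts were tested on simulated data. Replicate libraries of a group differed by more than sampling noise (chi-square per degree of freedom 45.4 to 664.9).

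Named genes are elav, fne and Rbp9, up to 12 called genes with names in each direction at a mean of at least 5 CPM and with groups apart, the 6 with the smallest p, up to 4 called genes per list, and in any case w, msl-2, Sxl, roX1, roX2 and the genes beside elav. No gene had 0 counts in 1 group and at least 5 CPM throughout the other. Other named genes, including list members used as examples, were chosen after their values were seen. The groups and the 35 gene lists were chosen with earlier results of these data known. Alternatives were DESeq2 1.42.0, RLE factors, testing without a low-count filter, other sets of libraries in the fit, the replicate block, a 2-fold minimum, robust dispersion and leaving out single libraries.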

Additional observations from a re-analysis of the deposited data

How the results depend on the processing

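Against WT, 26 genes were called. RLE factors, all 12 libraries in the fit, a 2-fold minimum and robust dispersion gave 25 to 28 calls, of which 16 to 26 were among the 26. The 2-fold minimum could not change the calls, because all 26 already differed by at least 2-fold. DESeq2 gave 295 (111 higher, 184 lower), no low-count filter 45 (13 higher, 32 lower), and a fit of 9 libraries without elav null, added after seeing the data, 73 (23 higher, 50 lower). Leaving out 1 library gave 0 to 76 calls, 0 to 29 higher and 0 to 47 lower. With the replicate block 7 genes were called (2 higher, 5 lower). Deviations of same-numbered WT and WDd libraries correlated at 0.05, −0.16 and −0.27, so the numbers do not pair them. Against elav null the calls lower in WDd were 818, and 1562 by DESeq2. Leaving out 1 library gave 1443 to 2467 calls, 957 to 1601 higher and 486 to 866 lower. Against the double null the calls lower in WDd were 926, and 1874 by DESeq2. The 6 libraries compared alone gave 4516 calls, 1784 of them lower. Leaving out 1 library gave 1913 to 2370 calls, 1346 to 1700 higher and 557 to 789 lower. The log2 fold change of Rbp9 turned from −0.04 to 0.06 without WT replicate 3 and to 0.06 without WDd replicate 1; over the left-out libraries it ran from −0.12 to 0.06. Alternatives were run for the 37 tested genes that the naming rule takes or that were called, and the other 36 kept their direction under all 14. Among the 14, the 2-fold minimum could not change a direction. Each of the 26 called genes lost its call under some alternatives. CG14419 passed under 12 of 14, fiz under 11, Reepl1 under 9, and roX1, Arc1, Ets21C and CG3588 under 8. The fewest were 6, for lcs and CG6106. roX2, not called by edgeR against WT, passed under 6 of 14 alternatives, w under 2 and msl-2 under 1. The cause of these shifts was not tested. Genes under about 1 CPM, among them most of the X stretch and the Y repeats, are limited by their low counts.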
